A study of Bos indicus x Bos taurus with 11 samples.

Results

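A set of 7 genes of cattle chromosome 4 that are known from mammals as imprinted, or as neighbours of imprinted genes, were followed in skin fibroblasts: PEG10, SGCE, TFPI2 and PPP1R9A around PEG10, MEST and COPG2 around MEST, and GRB10. They were chosen by name, and all 7 of them occur among the 27398 genes and assembled loci of the count table. Of those, 16946 had enough counts to be tested, the 7 included. The table of reads assigned to a parental allele holds 6 of them among its 9716 genes, MEST being the absent one, and 4 (TFPI2, PPP1R9A, COPG2 and GRB10) were among the 5696 genes with enough allelic reads in both groups.

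The libraries came from primary skin fibroblast cultures of day 105 F1 fetuses that crossed 2 breeds, Brahman, of Bos taurus indicus, with Angus, of Bos taurus taurus, with 1 library per fetus. Controls (CON_B) were 5 healthy fetuses, 2 females and 3 males, conceived by artificial insemination. The large offspring syndrome (LOS) group was 6 fetuses, 3 females and 3 males, conceived by assisted reproduction and heavier than the 97th centile of controls. LOS is a fetal overgrowth condition of ruminants, and the study sets it beside the human overgrowth disorder Beckwith-Wiedemann syndrome. The conception method differs with the group, so overgrowth and assisted reproduction cannot be told apart. The labels do not say which breed was the dam, so parent and breed of an allele cannot be told apart where the cross ran one way only. Each fetus is represented by 1 fibroblast culture, and p-values measure the spread between these cultures.

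Imprinted genes are read mainly from the allele of 1 parent, as set by DNA methylation that differs between egg and sperm. In placental mammals PEG10 and SGCE lie head to head beside a shared imprinted control region and are read from the paternal allele, and neighbours such as PPP1R9A and TFPI2 are read mainly from the maternal allele in some tissues, the placenta among them. MEST is likewise paternally read, and GRB10, an inhibitor of insulin and IGF signalling, is maternally read in many mouse tissues. Several of these genes set fetal or placental growth in mice.

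On ARS-UCD1.2, the build of the deposited tables, the members lie in 3 places of chromosome 4. GRB10 spans chr4:5105702-5327928 on the plus strand. TFPI2 lies at chr4:11204080-11208388 on the minus strand, 784018 bases before SGCE at chr4:11992407-12063767, also minus. PEG10 begins 186 bases past SGCE, on the plus strand, at chr4:12063954-12076659, and PPP1R9A follows after 114160 bases at chr4:12190820-12540227, plus. MEST, plus, is at chr4:94245517-94263783, and COPG2, minus, at chr4:94264005-94443642, 221 bases on. These are whole gene spans with exons, introns and UTRs together.

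The cultures carried fibroblast transcripts throughout: all 12 fibroblast markers were tested, and their summed level was 57906 to 72496 CPM (a library's counts scaled to a fixed total, with a correction for composition) in controls, against 58535 to 72668 CPM in LOS. The 3 muscle markers in the table summed to at most 0.635 CPM in any library, and the 5 leukocyte markers to 0.680 to 1.82 CPM. The 4 melanocyte and Schwann cell markers in the table summed to 45.3 to 331 CPM in controls and 56.1 to 132 CPM in LOS. The 5 pericyte and smooth muscle markers summed to 121 to 266 CPM in controls and 133 to 280 CPM in LOS. Adipocyte markers summed to 8.44 to 36.8 CPM in controls and 11.4 to 23.4 CPM in LOS. For keratinocyte markers the sums were 3.56 to 10.7 and 2.38 to 24.4 CPM, and for endothelial markers 4.55 to 6.14 and 3.89 to 6.50 CPM. The part of these other cell types in the results below was not tested. Fewer cells and less RNA per cell cannot be told apart in such bulk libraries. Total counts per library ran from 12084724 (LOS 1) to 19297095 (LOS 6). All 7 members had at least 151 counts in every library.

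No member was called as changed in LOS by the test across all genes. MEST came closest, at a higher mean level in LOS, and its groups overlapped. PEG10, SGCE and COPG2 had log2 fold changes within 0.10 of 0, while TFPI2, PPP1R9A and GRB10 averaged somewhat higher in LOS with errors that span 0 or nearly so. Of the 7 members, 5 had a positive and 2 a negative log2 fold change (median 0.17), beside 8447 positive and 8499 negative over all 16946 tested genes. By the quasi-likelihood test of edgeR, adjusted over all genes (Benjamini-Hochberg), 0 of the 7 were called, beside 0% of all tested genes. limma voom also called 0 genes, and DESeq2 called 5, none of them a member. 1 member (MEST) had an unadjusted p under 0.05, as did 4.44% of all tested genes. The control and LOS values overlapped in all 7, and were apart in 0.23% of all tested genes.

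**Figure D1:**
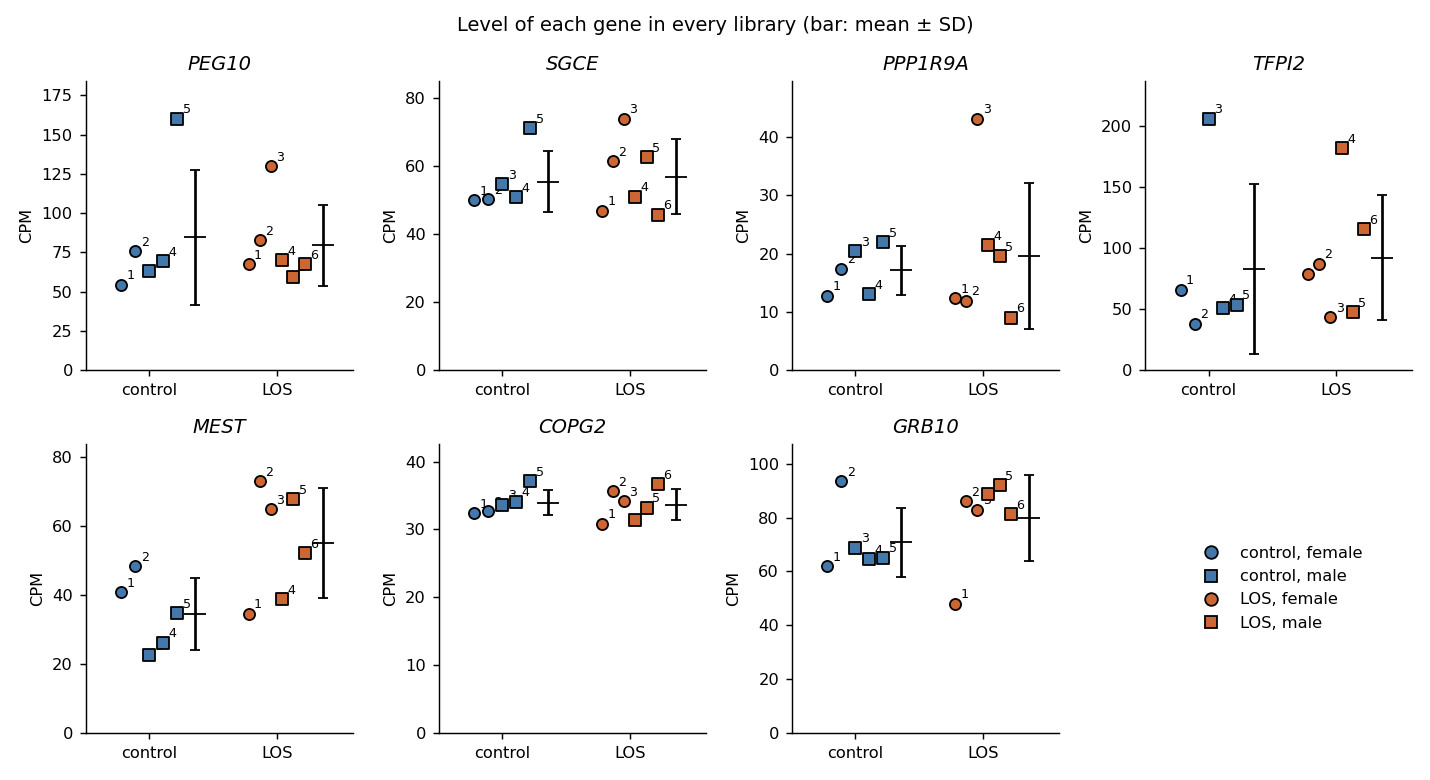
Level of each gene in CPM (y axis, from 0, a scale of its own per gene) in the 5 control and 6 LOS libraries, with the library number beside each point, circles for females, squares for males, and a bar for the mean ± SD. In each of the 7 genes the groups overlap, and 4 of 6 LOS libraries lie above the highest control for MEST.

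**Figure D2:**
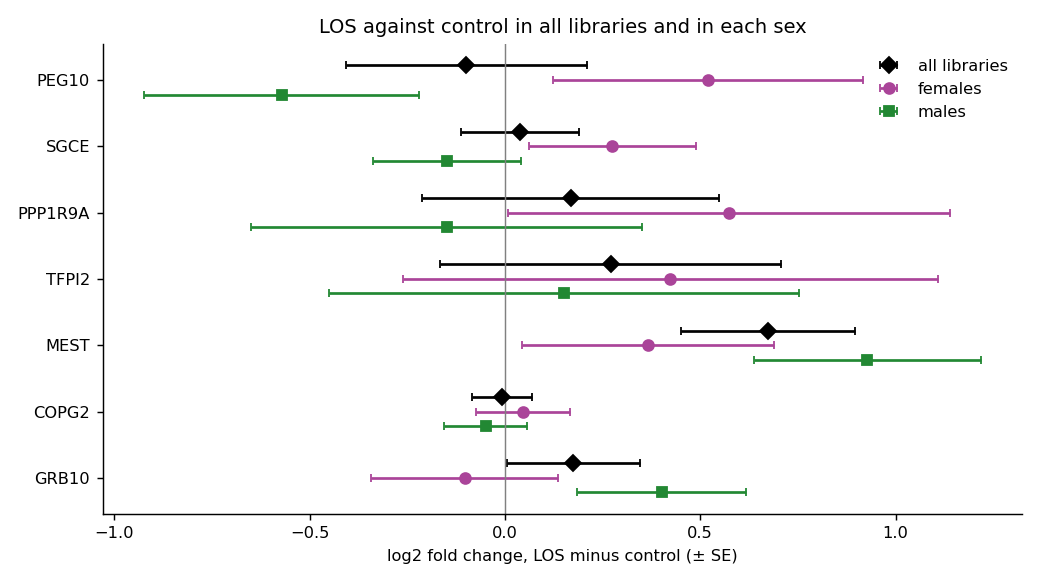
Log2 fold change of LOS minus control (x axis) with its SE, for each gene, in all libraries and in each sex from the fit with an interaction. PEG10 is on opposite sides of 0 in females (0.52) and males (-0.57), and MEST is above 0 in both.

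PEG10 encodes a protein derived from a retrotransposon, with Gag-like and Pol-like parts, that mice need to form the placenta. Its levels in controls 1 to 5 were 54.5, 75.6, 63.4, 69.3 and 160 CPM. In LOS 1 to 6 they were 67.4, 82.8, 130, 69.9, 59.6 and 67.3 CPM. Control 5, a male, was the highest of all 11 and LOS 3, a female, the next, and the remaining 9 libraries lay between 54.5 and 82.8 CPM, with both groups intermixed. The means were 84.6 ± 42.9 CPM (SD, n = 5) in controls and 79.5 ± 25.8 CPM (SD, n = 6) in LOS, a log2 fold change of -0.10 ± 0.31 (SE; edgeR adjusted p = 0.978). Without control 5 the estimate was 0.25, on the other side of 0.

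SGCE encodes epsilon-sarcoglycan, a membrane protein of the dystrophin-associated complex whose paternal loss causes myoclonus-dystonia in people. It varied less than PEG10. Controls stood at 49.99, 50.3, 54.6, 50.9 and 71.2 CPM, and LOS at 46.9, 61.3, 73.9, 51.0, 62.6 and 45.7 CPM. The highest values again came from control 5 and LOS 3, LOS 1 and LOS 6 were the lowest, and the groups overlapped. The means of 55.4 ± 9.01 CPM and 56.9 ± 10.95 CPM gave a log2 fold change of 0.04 ± 0.15 (edgeR adjusted p = 0.982).

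PEG10 and SGCE were compared library by library because their starts are only 186 bases apart. Across the 11 libraries their log2 levels correlated at Pearson's r = 0.765 (permutation p = 0.00818, two-sided, adjusted p = 0.0859 over the 21 pairs of members) and Spearman's rho = 0.509 (permutation p = 0.113, adjusted p = 0.657). Without LOS 3 and control 5, the libraries farthest from the PEG10 median, r fell to 0.111, so the relation rests on those libraries. SGCE and PPP1R9A gave r = 0.737 (permutation p = 0.00772, adjusted p = 0.0859) and rho = 0.745 (adjusted p = 0.243), and r = 0.426 without the same libraries. PEG10 and PPP1R9A gave r = 0.575 (adjusted p = 0.352) and -0.13 without them. MEST and COPG2, whose ends rather than starts lie 221 bases apart, gave r = 0.193 (adjusted p = 0.791). None of the 21 pairs passed after adjustment. The library LOS 3 was at or near the top for all of PEG10, SGCE and PPP1R9A.

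**Figure D3:**
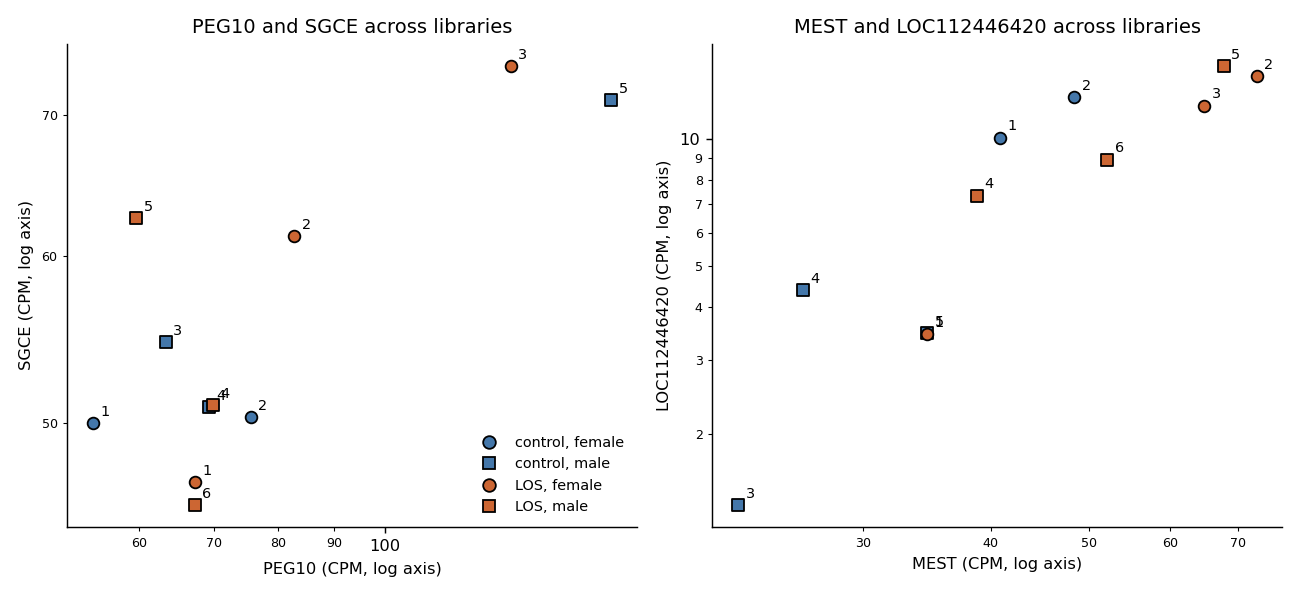
Left, SGCE against PEG10, and right, the long noncoding RNA gene LOC112446420 against MEST, in CPM on log axes, 1 point per library with its number (circles females, squares males, blue controls, orange LOS). On the left control 5 and LOS 3 stand apart at the top right; on the right the points rise together from control 3 to LOS 2 and LOS 5.

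PPP1R9A encodes neurabin-1, a scaffold that holds protein phosphatase 1 at actin filaments. Its levels were 12.8, 17.4, 20.4, 13.03 and 21.96 CPM in controls and 12.4, 11.9, 43.1, 21.4, 19.6 and 8.99 CPM in LOS. The LOS group held both the highest library (LOS 3) and the 3 lowest (LOS 1, LOS 2 and LOS 6), and it spanned the control range. The means were 17.1 ± 4.18 CPM in controls and 19.6 ± 12.5 CPM in LOS (log2 fold change 0.17 ± 0.38, edgeR adjusted p = 0.972). Without LOS 3 the estimate was -0.22.

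TFPI2 encodes a secreted inhibitor of plasmin and other serine proteases of the extracellular matrix, and was the member that varied most between fetuses. Controls stood at 66.1, 38.1, 206, 50.8 and 53.6 CPM, and LOS at 78.9, 87.2, 43.3, 182, 47.5 and 116 CPM. Its highest library was 5.41 times its lowest. The 3 highest values came from males of both groups (control 3, LOS 4 and LOS 6), and the groups overlapped over most of their range. The means of 83.0 ± 69.6 CPM and 92.4 ± 51.3 CPM gave a log2 fold change of 0.27 ± 0.44 (edgeR adjusted p = 0.958), which was 0.77 without control 3 and 0.04 without LOS 4.

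MEST encodes an endoplasmic reticulum protein of the alpha/beta hydrolase fold that promotes fetal growth and fat cell enlargement in mice. In controls it stood at 40.9, 48.3, 22.6, 26.2 and 34.7 CPM. In LOS it stood at 34.6, 72.9, 64.8, 38.8, 67.8 and 52.1 CPM. LOS 2, 3, 5 and 6 lay above the highest control, whereas LOS 1 and LOS 4 lay within the control range, and 5 of 6 LOS libraries were above the control median. The means were 34.5 ± 10.5 CPM (SD, n = 5) in controls and 55.2 ± 15.9 CPM (SD, n = 6) in LOS. The log2 fold change of 0.67 ± 0.22 had an unadjusted p of 0.0115 and an edgeR adjusted p of 0.932. MEST ranked 131st of 16946 genes by p, and 6.50% of tested genes had a larger change in either direction. The estimate ran from 0.54 to 0.80 as each library was left out, with no adjusted p below 0.305 (reached without LOS 1).

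COPG2 encodes the gamma-2 subunit of the COPI coat, which forms vesicles that travel within the Golgi and back to the endoplasmic reticulum. It was the steadiest member. Levels were 32.4, 32.6, 33.6, 34.1 and 37.1 CPM in controls and 30.9, 35.6, 34.1, 31.3, 33.2 and 36.6 CPM in LOS. The highest of the 11 libraries was 1.201 times the lowest, and the groups covered nearly the same range. The means of 33.95 ± 1.88 CPM and 33.6 ± 2.30 CPM gave a log2 fold change of -0.01 ± 0.08 (edgeR adjusted p = 0.994).

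GRB10 encodes an adaptor that binds the insulin and IGF1 receptors and restrains their signal, and its loss from the maternal allele makes mice overgrow. Controls stood at 61.9, 93.4, 68.9, 64.5 and 65.1 CPM, and LOS at 47.9, 86.2, 82.9, 88.7, 92.0 and 81.3 CPM. LOS 2 to 6 lay above 4 of the controls, but LOS 1 was the lowest of all libraries and control 2 the highest, so the groups overlapped over most of their range. The means were 70.8 ± 12.9 CPM in controls and 79.8 ± 16.1 CPM in LOS (log2 fold change 0.17 ± 0.17, edgeR adjusted p = 0.932). The estimate was 0.29 without LOS 1 (adjusted p = 0.409) and 0.34 without control 2 (adjusted p = 0.732).

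No member was called for sex, the other labelled factor, either. Male minus female log2 fold changes were largest for TFPI2 at 0.84 ± 0.44 (edgeR adjusted p = 0.999) and MEST at -0.37 ± 0.22 (edgeR adjusted p = 0.999). The test called 0.0472% of all tested genes. Within males, the 3 control values of MEST (22.6 to 34.7 CPM) lay below the 3 LOS values (38.8 to 67.8 CPM). The same held for GRB10, with 64.5 to 68.9 CPM against 81.3 to 92.0 CPM, so 2 of the 7 members had separate groups of 3 against 3. That was the case in 13% of all tested genes. Within females all 7 members overlapped. The difference of the LOS effect between the sexes was itself tested, and no member passed, as 0% of all 17583 genes in that fit. PEG10 had the smallest p of the members. Its female means were 65.1 CPM in 2 controls and 93.4 CPM in 3 LOS, its male means 97.6 CPM in 3 controls and 65.6 CPM in 3 LOS, and the interaction was -1.09 ± 0.53 (edgeR adjusted p = 0.921), or -0.54 without control 5. For GRB10 the interaction was 0.50 ± 0.32 and for MEST 0.56 ± 0.43.

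Reads carrying a variant that differs between the parents show which allele a transcript comes from. The share of such reads from the paternal allele was close to 50% for GRB10, PPP1R9A and TFPI2 and above 50% for COPG2. It did not pass the test for a difference between LOS and controls in any of these 4. PEG10 and SGCE had allelic reads in a single library, LOS 2, and mostly from the paternal allele there. MEST had none.

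In LOS 2, 228 of the 276 allelic reads of PEG10 and 419 of the 482 of SGCE were paternal. The maternal shares were 17.4% (95% exact Clopper-Pearson interval 13.1 to 22.4%) and 13.1% (10.2 to 16.4%). In that fetus most allelic reads of both genes were thus paternal. The median of the 3019 autosomal genes with at least 100 allelic reads in LOS 2 was 50.1% maternal. Of these genes, 3 had a maternal share as low as that of PEG10, itself included, and 1 as low as that of SGCE. This ranking is among genes with both alleles seen, because nearly every gene and library with allelic reads showed both. Genes read from 1 allele only could thus hardly appear in it. Whether PEG10 and SGCE were seen in LOS 2 alone because maternal reads were present there was not tested. The 95% intervals above cover counting error only, since reads of the same molecule or over several variants were not set apart. With 1 library there is no replicate check and no comparison with controls.

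The 10 libraries without allelic reads of PEG10 and SGCE were not short of transcripts: their lowest levels were 54.5 and 45.7 CPM. The expressed neighbours on both sides, CASD1 and PPP1R9A, had allelic reads in all 11 libraries. Genes with reads in 1 library were uncommon. Outside the blocks described below, 3458 annotated autosomal genes had a mean count of at least 500, and 67.0% of them had allelic reads in all 11 libraries, 3.50% in none and 1.21% in 1. For 4 of those genes the 1 library was LOS 2, PEG10 and SGCE among them. Whether a fetus lacked a variant in these genes or its reads came from 1 allele cannot be told apart, because the table shows both alleles in nearly every entry: 6 of 79210 pairs of a gene and a library with allelic reads had an allele at 0.

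**Figure D4:**
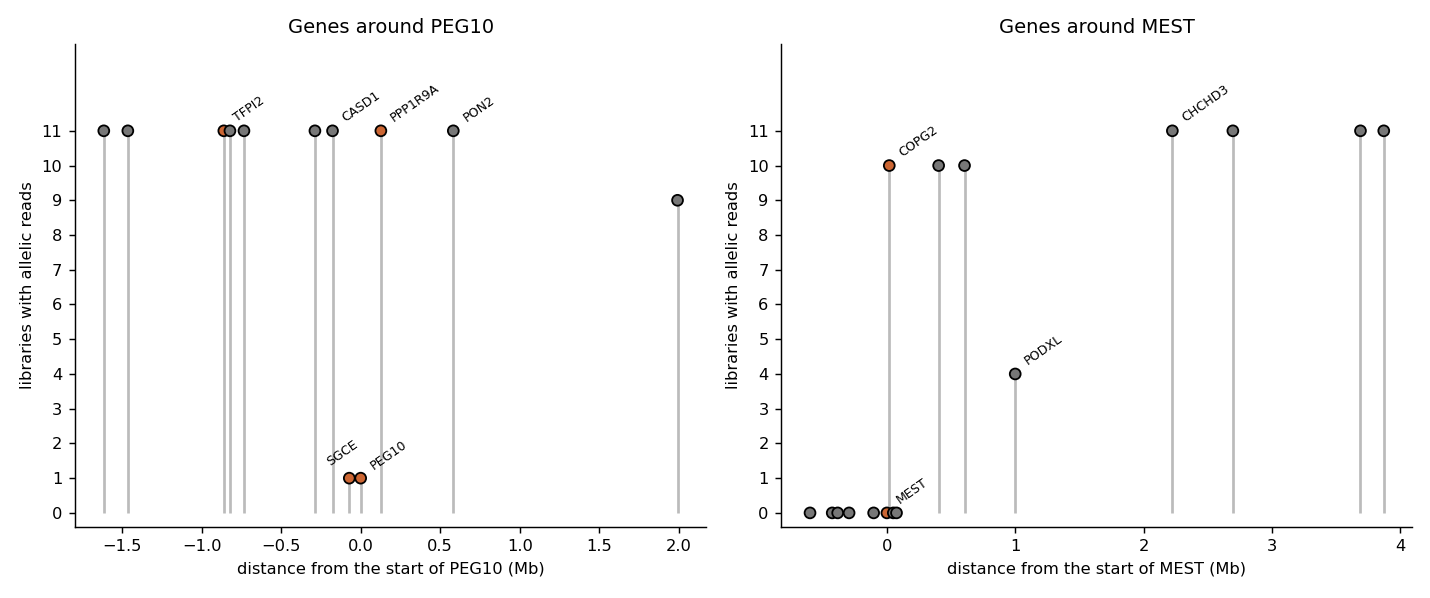
Number of the 11 libraries with allelic reads (y axis) for each expressed annotated gene, against its distance in Mb from the start of PEG10 (left) and of MEST (right); orange points are the genes followed here. PEG10 and SGCE have 1 library between neighbours with 11, and MEST is the last of a run of genes with 0.

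The absence of MEST from the allelic table was shared with a long stretch of genes before it. From MDFIC to MEST, over 40.8 Mb (chr4:53442795-94263783), each of 109 neighbouring annotated genes with a mean count of at least 100 had no allelic reads in any library, and reads began with COPG2. There were 11 such blocks of at least 20 genes on the autosomes. They held 2143 of 9273 expressed autosomal genes (23.1%), with the longest run, 467 genes, on chromosome 19. The alleles of MEST were thus not measured.

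COPG2 had allelic reads in 10 libraries, 28 to 79 in each. Its paternal shares were 60%, 74.4, 65.9, 59.5 and 60.7% in controls and 34.3, 68.8, 72.7, 70.7 and 68.1% in LOS 1 to 5. The paternal allele was above 50% in 9 of the 10 libraries and LOS 1, with 35 reads, was the exception (95% interval 19.1 to 52.2%). Other loci lie inside the span of COPG2 on the opposite strand, as described below. Whether counting used strand is not given, so some of these allelic reads may come from those loci. The same limit holds for the ratios of COPG2 that follow. LOS 6 had no allelic reads from COPG2 to PODXL, about 1 Mb further on, LOC107131356 and MKLN1 included, though it had 665 at CHCHD3 beyond. The means were 64.1 ± 6.31% (SD, n = 5) in controls and 62.9 ± 16.1% (SD, n = 5) in LOS, a difference of -1.17 percentage points (exact permutation p = 0.952, two-sided, with 0.00397 the smallest possible).

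In the model of allelic reads, the log2 ratio of paternal over maternal reads of COPG2 was 0.81 ± 0.26 in controls (edgeR adjusted p = 0.0528) and 0.82 ± 0.27 in LOS (edgeR adjusted p = 0.0554), so that 0 of the 4 members passed in either group. Among all genes 9.18% passed in controls and 10.4% in LOS. Averaged over both groups, a test added after these values were seen, the ratio was 0.81 ± 0.19 (edgeR adjusted p = 0.00298), and COPG2 was the member called, with the paternal allele higher. Of all tested genes 10.1% were called on that side, and 1.79% had a larger ratio in either direction. As each library was left out this ratio ran from 0.74 to 1.01, with the highest value without LOS 1, and it stayed called. In LOS alone the ratio was 1.21 without LOS 1 (edgeR adjusted p = 0.00206).

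GRB10 had by far the most allelic reads of the members, 1099 to 7148 per library, and both alleles contributed nearly equally. Paternal shares were 48.9, 45.6, 48.8, 49.4 and 50.5% in controls and 57.0, 51.9, 48.2, 49.0, 47.4 and 49.1% in LOS. LOS 1, which had the lowest GRB10 level, had the highest paternal share, and the other LOS libraries lay at or near the control range. The means were 48.6 ± 1.82% (SD, n = 5) and 50.4 ± 3.54% (SD, n = 6), 1.78 points apart (exact permutation p = 0.387, two-sided, with 0.00216 the smallest possible). Allelic reads outnumbered the gene's counts by 1.88 to 3.78 times. How they were counted is not given. If a read was counted at more than 1 variant, a binomial interval would be too narrow.

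PPP1R9A, with 4 to 250 allelic reads per library, was also read from both alleles: paternal shares were 49.0, 48.5, 54.5, 64.5 and 52.0% in controls and 50%, 55%, 52.8, 44.4, 51.9 and 57.4% in LOS. The LOS 1 value rests on 4 reads. The means of 53.7 ± 6.53% and 51.9 ± 4.48% differed by -1.78 points (exact permutation p = 0.632). LOS 3, the library with the highest PPP1R9A level, had 118 maternal and 132 paternal reads.

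TFPI2 shares spread more widely, on 44 to 165 reads: 60.9, 50%, 61.8, 45.7 and 50.6% in controls and 50%, 40.9, 35.6, 52.1, 71.6 and 58.8% in LOS. LOS 2, LOS 3 and LOS 5 lay outside the control range. LOS 3 was the lowest of the 11 (95% interval 23.6 to 49.1%) and LOS 5 the highest (59.9 to 81.5%). The means were 53.8 ± 7.18% and 51.5 ± 12.9%, -2.32 points apart (exact permutation p = 0.721). Over the 4 members the test of the share called none, by the edgeR model (adjusted p = 0.999 for each) or by exact permutation (adjusted p of 0.992 to 0.998), as 0% of all genes in both.

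**Figure D5:**
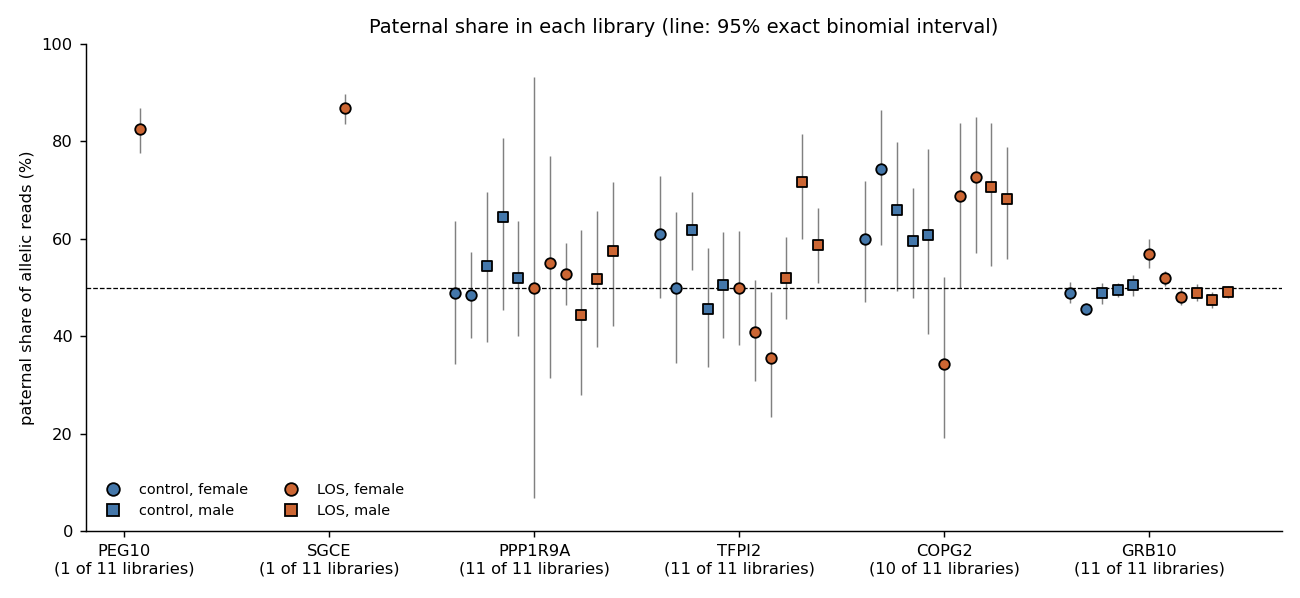
Paternal share of allelic reads in percent (y axis) for each library with reads, by gene along the x axis, controls first; lines are 95% exact binomial intervals and the dashed line is 50%. PEG10 and SGCE have only LOS 2, above 80%, COPG2 lies above 50% in 9 of 10 libraries, and GRB10 stays between 45.6 and 57.0%.

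The authors' table that divides each gene's count between the alleles holds TFPI2, PPP1R9A and GRB10. The maternal counts gave LOS minus control log2 fold changes of 0.45 ± 0.43 for TFPI2, 0.23 ± 0.40 for PPP1R9A and 0.13 ± 0.21 for GRB10. The paternal counts gave 0.09 ± 0.45, 0.12 ± 0.37 and 0.22 ± 0.15 in the same order. edgeR called 0 of the 3 on either allele, and 0% of all genes on either.

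The neighbours of the PEG10 cluster were read from both alleles as well. VPS50, a subunit of a complex that recycles endosomes, was 52.2 to 62.6% paternal and above 50% in 11 of 11 libraries (log2 ratio 0.39 ± 0.12 in controls, edgeR adjusted p = 0.0385, and 0.46 ± 0.11 in LOS, adjusted p = 0.00852). CASD1, an enzyme that acetylates sialic acids, lay above 50% in 10 of 11, on far fewer reads, and passed in LOS (edgeR adjusted p = 0.0384) but not in controls (adjusted p = 0.175). The ratio did not pass the test of a difference between the groups in either gene (edgeR adjusted p = 0.999 for each). COL1A2, a chain of type I collagen, stood at 47.2 to 51.5%. GNG11 was 32.4 to 65.9% paternal and under 50% in 8 of 11 libraries. BET1 (38.9 to 69.4%) and PON2 (44.6 to 57.7%) were each under 50% in 7 of 11. GNG11, BET1 and PON2 passed in neither group (smallest edgeR adjusted p = 0.0789, for GNG11 in LOS).

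A group of 4 loci on the plus strand lies inside the span of COPG2, past the end of MEST: the assembled loci MSTRG.3884 and MSTRG.3885, the long noncoding RNA gene LOC112446420 and a locus the table names MARK4. They were singled out after their values were seen. Over the 11 libraries the level of each was more highly correlated with MEST than with COPG2. Because of how they were chosen, these correlations are a description, with no test. LOC112446420 stood at 10.1, 12.5, 1.36, 4.38 and 3.46 CPM in controls and 3.45, 14.1, 11.99, 7.34, 14.9 and 8.93 CPM in LOS. As for MEST, control 3 was the lowest library, controls 1 and 2 the highest of their group, LOS 1 the lowest of its group and LOS 2, 3 and 5 the highest. The log2 levels of MEST and LOC112446420 correlated at r = 0.902 and rho = 0.918, and at r = 0.844 without LOS 2 and control 3. Within the 5 controls r was 0.907 and within the 6 LOS libraries 0.941.

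For MARK4, MSTRG.3885 and MSTRG.3884 the correlation with MEST was 0.885, 0.879 and 0.795 (rho 0.891, 0.927 and 0.827), and 0.839, 0.802 and 0.681 without the same libraries. With COPG2 the 4 loci gave r between 0.027 and 0.077 over all libraries, where the groups differed in sign: r was -0.64 to -0.45 within the 5 controls and 0.499 to 0.637 within the 6 LOS libraries. Of the 16945 other tested genes, 6 correlated with MEST at least as highly as LOC112446420, 13 as MARK4, 18 as MSTRG.3885 and 108 as MSTRG.3884, each locus itself included. Their own LOS minus control log2 fold changes were 0.82 ± 0.48 for LOC112446420, 0.31 ± 0.22 for MARK4, 1.09 ± 0.59 for MSTRG.3885 and 0.64 ± 0.45 for MSTRG.3884, none called (edgeR adjusted p = 0.932 for each). The sources used here do not say whether counting used strand, so reads of COPG2 and of these loci may be shared. The position of MARK4 is uncertain, because the allelic table places the same gene ID on chromosome 18.

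The genes most like each member over the 11 libraries, by Pearson's r of log2 levels among 10185 annotated genes of at least 5 CPM, were as follows. For MEST they were GUCD1 (0.950), EGR1 (0.930), a transcription factor gene induced by growth factors, and IGF2BP2 (0.919), which binds IGF2 mRNA. GRB10 was nearest to PRRC2B (0.965), the transcription factor gene BCL11B (0.961) and CMIP (0.957). PEG10 was nearest to FAM185A (0.898), UBXN4 (0.891) and KNSTRN (0.865), and SGCE to GAB1 (0.940), an adaptor of receptor tyrosine kinases, STAT5B (0.877) and WDR35 (0.859). For TFPI2 they were TACC1 (0.964), the actin scaffold gene IQGAP1 (0.952) and MLLT11 (0.933), and for PPP1R9A the cohesin gene RAD21 (0.844), CD2BP2 (0.838) and COMMD1 (0.835). For COPG2 they were the proteasome activator gene PSME1 (0.922), PARP9 (0.906) and DTX3L (0.901). FAM185A is the one of the 21 that lies on chromosome 4.

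Genes that work with the members were read from lists by function, and none of their genes passed the test. Of 14 insulin and IGF receptor adaptors and receptors beside GRB10, 10 had a positive and 4 a negative log2 fold change, with a median of 0.06. IGF1R, a receptor that GRB10 binds, stood at 369 ± 74.5 CPM in controls against 519 ± 91.4 CPM in LOS (0.50 ± 0.16, unadjusted p = 0.00792, edgeR adjusted p = 0.932), with 6 of 6 LOS libraries above the control median. The IGF1R groups overlapped, with the highest control at 479 CPM and the lowest LOS library at 397 CPM. SH2B2, another adaptor, had 0.91 ± 0.35. Of 8 COPI coat subunits beside COPG2, 4 were positive and 4 negative (median 0.00), from -0.18 for COPZ2 to 0.06 for COPE. Of 11 sarcoglycan and dystroglycan complex genes, 5 were positive and 6 negative (median -0.09). DAG1, which encodes dystroglycan, stood at -0.16 ± 0.10 and SGCA at -1.15 ± 0.64. SGCA was low, with means of 5.16 CPM in controls and 2.31 CPM in LOS.

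Of 7 genes of the tissue factor and plasmin pathway, 5 were positive and 2 negative (median 0.08). PLAU, a plasminogen activator, had 0.33 ± 0.18, and SERPINE2, a protease inhibitor, -1.28 ± 0.70. Of 4 further genes derived from retroelements, 1 was positive and 3 negative (median -0.14), with RTL5 at -0.38 ± 0.22. Of 6 genes of spinophilin and protein phosphatase 1, 5 were positive and 1 negative (median 0.04), with PPP1R12A, a myosin phosphatase subunit, at 0.27 ± 0.13.

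Imprinted genes elsewhere had log2 fold changes of both signs. Of 14 with the maternal allele known as active, 6 were positive and 8 negative (median -0.02), and of 11 with the paternal allele active, 7 and 4 (median 0.04). edgeR called none in either list. IGF2R, the maternally read receptor that clears IGF2, had allelic reads in all 11 libraries, 15.8 to 46.0% of them paternal. Its level was 887 ± 99.8 CPM in controls against 485 ± 133 CPM in LOS, with the groups apart (log2 fold change -0.90 ± 0.16, edgeR adjusted p = 0.932), and it was 1 of 2 genes of its list with an unadjusted p under 0.05. SNRPN, paternally read in other mammals, had allelic reads in 4 libraries. It was 81.9% paternal in LOS 2, 74.2% in LOS 3 and 66.9% in LOS 5, on 177 to 260 reads, and 14.3% in control 4, on 7 reads. In LOS 2 the paternally read gene PEG3 was 50% paternal on 4 reads, and KCNQ1, maternally read in mice, was 64.0% paternal on 189. Leaning to the allele known as active in LOS 2 were IGF2R (25.6% paternal on 407 reads), MEG8 (12.5% on 8) and the paternally read MAGEL2 (70.8% on 24). Others with the maternal allele known as active were above 50% paternal there, CD81 (63.0% on 673) and UBE3A (60.5% on 86) among them.

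The surroundings of the members were scanned within 500 kb. Of 53 other loci there, 32 were tested, 21 with a positive and 11 with a negative log2 fold change (median 0.12), and 0 were called. PON2, a lactonase gene past PPP1R9A, stood at 30.6 ± 5.33 CPM in controls against 33.5 ± 4.59 CPM in LOS (0.17 ± 0.09), with 6 of 6 LOS libraries above the control median. KLHDC10 (0.17 ± 0.10) and UBE2H (0.14 ± 0.08) lie before MEST. Near GRB10, DDC had -0.58 ± 0.39 and FIGNL1 -0.47 ± 0.36, and near PEG10, GNG11 had 0.48 ± 0.35 and CASD1 0.13 ± 0.15. DDC (means of 2.48 CPM in controls and 1.59 CPM in LOS) and FIGNL1 (2.47 and 1.91 CPM) were low.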

How the data were processed

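Ribosomal RNA was removed and paired 150-base reads were sequenced, per the labels' protocols. The authors deposited expected counts per gene (not all whole), raw allelic read counts, and expected counts divided by allele. Per the submitters' processing notes the build was ARS-UCD1.2 and the tools included HISAT2 2.1.0, StringTie 2.1.4, Salmon 0.11.1, GATK and edgeR 3.36.0. How reads were counted, whether strand was used and how variants were called: not given in the sources used here. The allele-adjusted counts add up to the gene's expected count, tested on the deposited values.

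Expected counts were rounded and fitted with edgeR 4.0.16 (quasi-likelihood, TMM, filterByExpr, terms for sex and group) over all genes. Allelic reads were fitted with terms for library, allele and allele by group on autosomal genes averaging at least 20 allelic reads, with 10 or more in at least 3 libraries per group. Calls are at a Benjamini-Hochberg adjusted p under 0.05. Shares were also tested by exact permutation over libraries, and correlations (log2 of CPM plus 0.5) with 100000 permutations. The edgeR fits of total counts and of allelic shares were tested on simulated data, and the other steps were not.

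The members and lists were chosen with earlier results of these data known. Named genes are the 7 members, up to 4 genes per list or region by p, and 3 genes per member by likeness; any other was picked once its values were known. The alternatives tried were DESeq2 1.42.0, limma 3.58.1, other scaling, filters and read minimums, no sex term, each sex, a replicate block, pooled reads and each library left out. Totals of 12084724 to 19297095 counts per library set the precision. All 11 libraries were used. No sequences are printed.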

Additional observations from a re-analysis of the deposited data

Results flagged for a closer look

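Dixon's test at 95% was run on 22 sets of values (each member's level or paternal share in 1 group). In 8 of them the gap from 1 library to its nearest neighbour was a large part of the set's range. Chance gives about 1 in 20 sets only for normally distributed values and independent sets. Here levels were not on a log scale and the sets share libraries, so the 8 cannot be set against that rate. Control 5, LOS 1 and LOS 3 recur among the 8.

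Control 5 was high for both PEG10 and its close neighbour SGCE, at 160 CPM for PEG10 where the other controls ran from 54.5 to 75.6 CPM, and at 71.2 CPM for SGCE where they ran from 49.99 to 54.6 CPM. LOS 3 was high for PEG10 (130 CPM, the other LOS libraries 59.6 to 82.8 CPM) and for PPP1R9A (43.1 CPM, the others 8.99 to 21.4 CPM). LOS 1 was low for GRB10 (47.9 CPM, the others 81.3 to 92.0 CPM) and for the paternal share of COPG2 (34.3%, the others 68.1 to 72.7%). Control 3 was high for TFPI2 at 206 CPM (the others 38.1 to 66.1 CPM), and control 2 for GRB10 at 93.4 CPM (the others 61.9 to 68.9 CPM). No cause was tested.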

How the results depend on the processing

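Of 901 recomputed values, 817 kept their direction and their side of the threshold, 64 changed sign, 17 counts moved by over 1.5 times and 3 became calls. MEST stayed positive and uncalled in every alternative. Over all genes DESeq2 called 5 for LOS against control, 22 for sex and 6 for the interaction, none of them a member; sex gave 3 among annotated genes. limma on the allelic ratio called 237 genes in controls and 311 in LOS. Over both groups it called 833 where edgeR called 1142.

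Signs turned in females for PEG10 (0.52), GRB10 (-0.10) and COPG2 (0.046), in males for SGCE (-0.15) and PPP1R9A (-0.15), with library totals as the scale for SGCE (-0.022) and for GRB10 by sex (-0.0024), with limma for the COPG2 share (-0.053), and with pooled reads for the shares of PPP1R9A (0.883 points) and COPG2 (0.972 points). None of these was called.

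Labels share replicate numbers, and the deviations of same-numbered libraries from their group means gave mixed correlations (0.32, 0.20, -0.22, -0.22 and -0.05). For numbers 1 and 2 the same-numbered LOS library was the best match of the control, and for the others it was not. These values do not settle whether the numbers mark pairs. With the number as a replicate block the calls stayed at 0, estimates moved to 0.78 for TFPI2, -0.23 for PEG10 and 0.48 for MEST, and signs turned for PPP1R9A (-0.0080, paternal allele -0.093) and the COPG2 share (-0.052).

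With each library left out, log2 fold changes ran from -0.034 to 0.023 for COPG2, -0.30 to 0.25 for PEG10, -0.22 to 0.36 for PPP1R9A and -0.049 to 0.14 for SGCE. For sex the calls ran from 3 to 7, and estimates from -0.094 to 0.21 for GRB10, -0.29 to 0.18 for PEG10, -0.27 to 0.36 for PPP1R9A and -0.087 to 0.095 for SGCE. The interaction ran from -1.03 to 0.15 for PPP1R9A and -0.77 to 0.72 for TFPI2. The change in share gave 0 to 1 calls over all genes, and -0.13 to 0.40 for COPG2, -0.10 to 0.10 for PPP1R9A and -0.34 to 0.019 for TFPI2. Allelic ratios ran from 0.66 to 0.90 for COPG2 in controls, called without LOS 1 (adjusted p = 0.0134, edgeR) and without LOS 6 (0.0495), and in LOS from 0.68 to 1.21 for COPG2, -0.050 to 0.052 for GRB10 and -0.073 to 0.26 for TFPI2. Single alleles ran from -0.14 to 0.43 (maternal) and -0.28 to 0.31 (paternal) for PPP1R9A, and -0.11 to 0.68 (paternal) for TFPI2. The cause of these changes was not tested. Allelic depth limits what can be seen at PEG10 and SGCE (reads in 1 library), PPP1R9A (4 to 250 reads) and COPG2 (28 to 79); MEST has none.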
